A study of Mus musculus with 8 samples.

Results

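The genes described here are 33 genes of the unfolded protein response and of the main chaperone families, read by gene name from a count table of 46078 rows. They were measured in the hippocampus of 9-week-old C57BL/6J mice. 4 libraries came from wild type (WT) mice. 4 came from mice labelled Cre, which are Cre+/- for the transgene Tg(Camk2a-cre)T29-1Stl. In this transgenic line, called T29-1, the Camk2a promoter drives Cre recombinase, and Camk2a is a kinase gene of forebrain excitatory neurons. No floxed target is named in the labels, and the labels do not say how many animals stand behind a library. All 33 names had exactly 1 row. 32 of the 33 passed the filter on low counts, among 15996 genes in all. Trib3 did not pass.

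A cell folds its secreted and membrane proteins in the endoplasmic reticulum (ER), with chaperones and disulfide isomerases of its own. When unfolded protein accumulates there, the sensors IRE1, PERK and ATF6 start the unfolded protein response (UPR), in which XBP1, ATF4 and cleaved ATF6 switch on ER chaperone genes and, under lasting stress, genes such as Ddit3. The cytosol answers unfolded protein through heat shock factor 1, which induces HSP70 and HSP90 family genes, and mitochondria keep separate chaperones made from nuclear genes. Neurons carry a heavy load of secretory and synaptic proteins, and HSC70 and HSP90 are among the abundant proteins of the brain.

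The members were set in 4 classes by where the protein works: 13 ER chaperones and folding enzymes, 7 regulators and effectors of the UPR and of the related integrated stress response, 10 cytosolic chaperones and co-chaperones, and 3 mitochondrial chaperones. RefSeq promoters on GRCm38.p6 (250 bases before to 50 after the start of the transcript) were found for 27 of the 33, in 30 windows. The entries for Hyou1, Manf, Hspa8, Hsp90aa1, Hsp90ab1 and Hspa9 were missing. Both strands of each window were searched for 3 motifs. These were the ER stress element (CCAAT and CCACG with 9 bases of any kind between them), the heat shock element (GAA, TTC and GAA with 2 bases of any kind between neighbours) and the core of the amino acid response element (TGATGNAA). The first is bound by ATF6 with the factor NF-Y, the second by heat shock factors, and the third by ATF4 with its partners.

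The ER stress element was present in 7 of the 11 ER chaperone promoters found (63.6%), against 0.119% of all 32851 promoters of the same length (39 promoters). It was in 0 of 7 windows of UPR regulators, 0 of 9 of cytosolic and 0 of 3 of mitochondrial chaperones. The 8 matches are shown because they mark which members share this element. They are written 5′ to 3′ in the orientation of the motif, with the fixed letters in capitals.
Hspa5, chr2:34772025-34772043, plus strand: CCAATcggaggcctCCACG
Hsp90b1, chr10:86705533-86705551, plus strand: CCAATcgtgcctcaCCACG
Hsp90b1, chr10:86705638-86705656, minus strand: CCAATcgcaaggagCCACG
Calr, chr8:84847075-84847093, plus strand: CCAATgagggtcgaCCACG
Canx, chr11:50325800-50325818, minus strand: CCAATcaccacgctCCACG
Creld2, chr15:88819520-88819538, minus strand: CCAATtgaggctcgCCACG
Dnajc3, chr14:118937827-118937845, plus strand: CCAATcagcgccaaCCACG
Pdia6, chr12:17266491-17266509, plus strand: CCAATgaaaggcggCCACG

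Hsp90b1 was the only member of the 27 with more than 1 match to the ER stress element. The 185 bases on the minus strand of chr10:86705510-86705694 lie before its RefSeq start and outside the exons of GENCODE M21. Capitals mark both matches, of which the second lies on the opposite strand and so reads as its reverse complement.
Hsp90b1: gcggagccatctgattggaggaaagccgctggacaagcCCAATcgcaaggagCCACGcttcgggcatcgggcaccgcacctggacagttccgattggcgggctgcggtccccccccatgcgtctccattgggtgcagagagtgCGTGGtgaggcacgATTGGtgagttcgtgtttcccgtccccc

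The heat shock element was in 0.603% of all promoters. Among the members it was found in the windows of Hspe1 and Hsph1 and in the Hspd1 window chr1:55087883-55088182. From the start of that window, Hspd1 and Hspe1 face away from each other. The other Hspd1 window, chr1:55088194-55088493, held 0 matches. Its start is that of the gene in GENCODE, from which the exons of Hspd1 and Hspe1 overlap. Hspd1 and Hspe1 hold the same pair of overlapping matches, 18 bases on the plus strand of chr1:55088059-55088076, and the match of Hsph1 lies 16 to 28 bases after the nearer of its starts, on the plus strand of chr5:149636288-149636300. Capitals mark the letters fixed by the motif.
Hspd1 and Hspe1: TTCtaGAAccTTCcgGAA
Hsph1: GAActTTCcaGAA

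The core of the amino acid response element was in 3.97% of all promoters and in those of 4 of the 7 UPR regulators, Atf3, Chac1, Herpud1 and Trib3. Each had 1 match, TGATGcAA in Atf3, Chac1 and Herpud1 and TGATGtAA in Trib3. A match of letters is a description of the window and does not show that a factor binds there. Only exact matches within these windows were counted, so a window without one does not show that an element is absent.

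The libraries held 23358289 to 30882631 counts. WT replicate 4 stood apart from the other 7 in a principal component analysis of log2 CPM (read counts brought to a common library size). On the leading component it had a score of 33.4 against -8.74 to 0.687, so the log2 fold changes of the tested members and of the named pathway genes are given with and without it. All 9 markers of hippocampal excitatory neurons examined (Prox1, Wfs1, Zbtb20, Neurod2, Camk2a, Bok, Fibcd1, Calb1 and Slc17a7) were detected in every library, and 8 of the 9 were lower in mean in T29-1 Cre, with a median log2 fold change of -0.03 (-0.02 without WT replicate 4). The 33 genes together took 0.690% to 0.748% of all counts in WT and 0.662% to 0.713% in T29-1 Cre.

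Levels spanned more than 3 orders of magnitude. On a scale of CPM per kilobase of exon, the highest WT means were those of the cytosolic chaperones Hsp90ab1 (571), Hspa8 (335) and Hsp90aa1 (249). The ER lectin chaperones Calr and Canx followed at 122 and 77.3, and then the ER forms of HSP90 and HSP70, Hsp90b1 at 70.3 and Hspa5 at 53.7. The mitochondrial chaperonin Hspd1 stood between them at 61.0. The inducible HSP70 genes Hspa1a and Hspa1b were low, at 4.20 and 4.99 on this scale, against 335 for their constitutive relative Hspa8. The stress effectors Ddit3, Chac1, Atf3 and Trib3 were at 8.18, 3.77, 0.435 and 0.240. 19 of the 33 genes varied by less than 10% (coefficient of variation) within both genotypes.

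**Figure D1:**
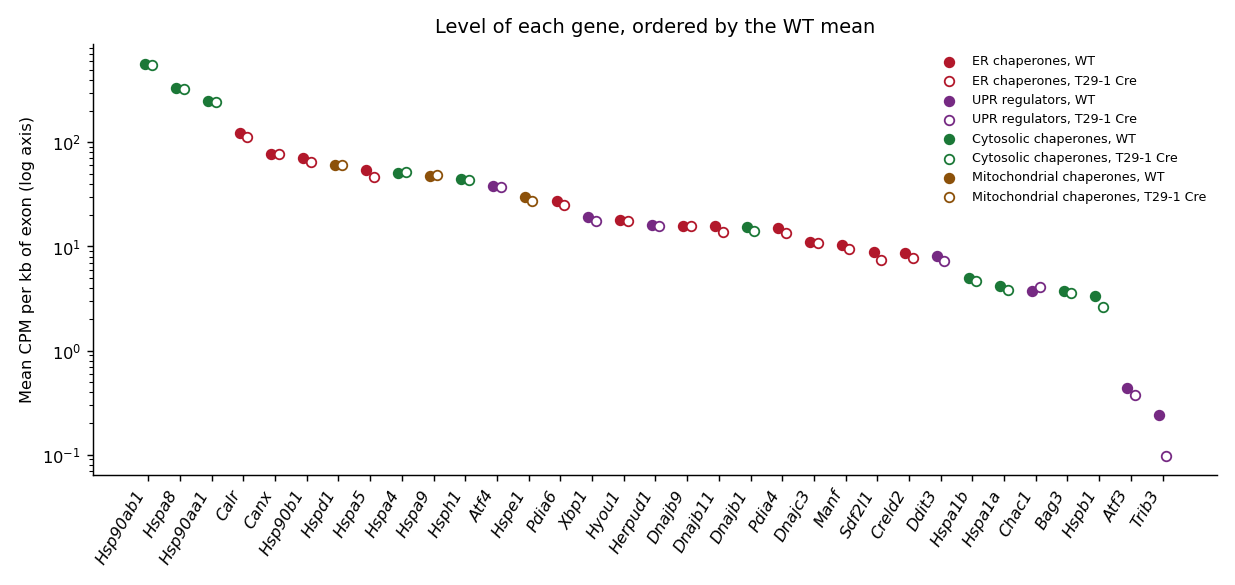
Mean level of each of the 33 genes as CPM per kilobase of exon, on a log axis, in WT (filled) and T29-1 Cre (open), ordered by the WT mean and coloured by class. The 3 cytosolic chaperones Hsp90ab1, Hspa8 and Hsp90aa1 lead, and Atf3 and Trib3 lie below 1.

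The comparison of the genotypes asks which of these genes differ between WT and T29-1 Cre hippocampus. None of the 32 tested members differed past the threshold (edgeR quasi-likelihood test, adjusted p under 0.05 over all genes), and the smallest adjusted p among them was 0.998. In the background 1 of 15996 genes was called (0.00625%), St6gal2. At an unadjusted p under 0.05, 6 members had a lower value in T29-1 Cre and 0 a higher one, against 1.16% and 1.27% of all genes tested (2.43% either way). All 6 were ER chaperones: Dnajb11, Hspa5, Pdia4, Hsp90b1, Sdf2l1 and Calr. In bulk tissue, fewer cells of a type and less RNA per cell cannot be told apart.

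The 13 ER chaperones all had a lower mean in T29-1 Cre, with log2 fold changes from -0.25 to 0.00 and a median of -0.13, a difference of -8.33% in level. Over all genes tested the median was 0.00, and 50.3% had a lower value in T29-1 Cre. For 3 of the 13, Hspa5, Dnajb11 and Hsp90b1, every WT library lay above every T29-1 Cre library, which was so for 0.963% of all genes tested. The opposite order was seen for 0 of the 32 members and for 0.844% of all genes.

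Hspa5 encodes BiP, the HSP70 of the ER lumen, which binds nascent chains and holds the UPR sensors inactive. It was at 243, 212, 208 and 245 CPM in WT replicates 1 to 4 and at 201, 205, 180 and 207 CPM in T29-1 Cre replicates 1 to 4. The lowest WT library (208) and the highest T29-1 Cre library (207) all but touched, and WT replicates 1 and 4 stood above the rest. The log2 fold change was -0.20 (SE 0.0655, edgeR adjusted p = 0.998), a difference of -12.7% in level (95% interval -20.9% to -3.81%). A permutation test of its log2 CPM, exact and two-sided, gave p = 0.0286, the smallest possible with 4 libraries against 4. Any gene whose groups do not overlap gets this p, as Dnajb11 and Hsp90b1 did, so it only restates that order. By the same test the smallest p was 0.2 among tested UPR regulators, 0.114 among cytosolic and 0.229 among mitochondrial chaperones. In GRCm38 Hspa5 spans chr2:34771970-34777547 (plus strand).

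Dnajb11, an HSP40 co-chaperone of BiP, had the smallest unadjusted p of the 32 members (0.0070, edgeR). Its levels were 51.4, 51.5, 46.1 and 52.9 CPM in WT and 44.8, 45.3, 43.3 and 45.9 CPM in T29-1 Cre. WT replicate 3 was the lowest WT library, just above the highest T29-1 Cre library. The log2 fold change was -0.17 (SE 0.0542), with a 95% interval from -0.29 to -0.06.

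Hsp90b1, which encodes GRP94, the HSP90 of the ER, was the steadiest of the 3. It was at 294, 279, 277 and 284 CPM in WT and 263, 268, 257 and 268 CPM in T29-1 Cre. Here WT replicate 4 sat in the middle of its group, and T29-1 Cre replicate 3 was again the lowest library. The log2 fold change was -0.10 (SE 0.0427, unadjusted p = 0.0310 by edgeR). A pseudogene on the opposite strand covers 10.3% of its exon bases, so those reads are uncertain where counting ignored strand.

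The other 3 ER members at an unadjusted p under 0.05 overlapped between the genotypes. Pdia4, a disulfide isomerase, was at 38.6, 34.0, 33.5 and 39.4 CPM in WT and 33.1, 30.6, 30.6 and 34.5 in T29-1 Cre, with WT replicates 1 and 4 above all other libraries. Sdf2l1, a partner of Dnajb11 in the BiP cycle, was at 11.4, 9.40, 8.29 and 10.5 CPM in WT and 8.95, 8.82, 8.34 and 7.09 in T29-1 Cre, so that WT replicate 3 fell among the T29-1 Cre libraries. Calr, the lumenal lectin chaperone calreticulin, was at 363, 343, 326 and 372 CPM in WT and 326, 342, 295 and 324 in T29-1 Cre. Their log2 fold changes were -0.18 (SE 0.0682), -0.25 (SE 0.112) and -0.13 (SE 0.0569) in that order. Without WT replicate 4 they were -0.14, -0.22 and -0.10. Their exact permutation p values were 0.114, 0.143 and 0.0571.

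The remaining 7 ER members ran from a log2 fold change of -0.17 to 0.00. Creld2, a secreted ER stress protein, had -0.17 (SE 0.126), and its WT replicate 4 was at 15.5 CPM against 9.92 to 11.2 in the other WT libraries. Without WT replicate 4 its value was -0.02. Manf, an ER-resident neurotrophic factor, went from -0.13 to -0.06 without that library, and Pdia6, a disulfide isomerase, from -0.10 to -0.07. Dnajc3, the BiP co-chaperone p58IPK, was at -0.05 (SE 0.0458), and Hyou1, the nucleotide exchange factor GRP170, at -0.05 (SE 0.0584). Dnajb9, which holds IRE1 inactive with BiP, was at -0.01 (SE 0.0502), and Canx, the membrane-bound partner of calreticulin, at 0.00 (SE 0.0438). Without WT replicate 4, Dnajc3 was at -0.06, Hyou1 at -0.03, Dnajb9 at 0.00 and Canx at -0.02. The 95% interval for Canx, from -6.44% to 6.62%, leaves out the difference of -12.7% estimated for Hspa5. It overlaps the interval of Hspa5 itself (-20.9% to -3.81%), and the genes were not tested against each other.

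**Figure D2:**
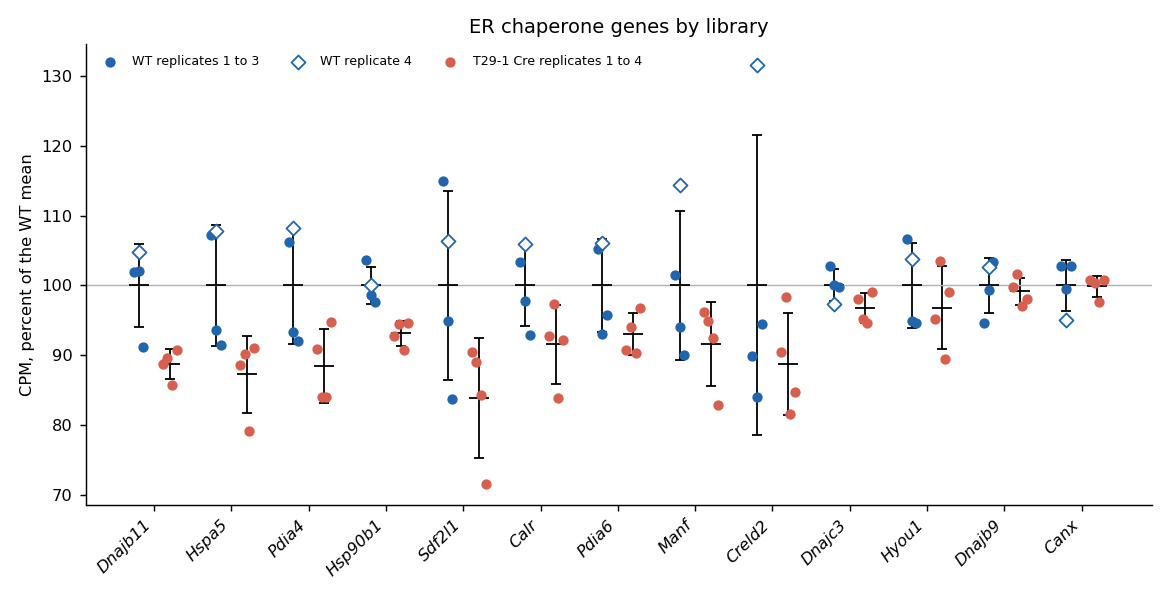
CPM of the 13 ER chaperones in each library, as a percent of the gene's WT mean, with the mean and SD of each genotype as bars (n = 4). WT replicate 4 is drawn as an open diamond. In Dnajb11, Hspa5 and Hsp90b1 every WT library lies above every T29-1 Cre library, and in Creld2 the WT mean rests on WT replicate 4.

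The values of ER members with and without the ER stress element overlapped. The 7 with a match had a median log2 fold change of -0.10 (range -0.20 to 0.00), and 3 of them, Hspa5, Hsp90b1 and Calr, were at an unadjusted p under 0.05. The 4 with a window but no match, Dnajb11, Pdia4, Sdf2l1 and Dnajb9, had a median of -0.17 (range -0.25 to -0.01), and 3 of them were at an unadjusted p under 0.05. With 7 and 4 genes this is a description only, and the difference was not tested.

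The ER median was nearer 0 without WT replicate 4. Leaving that library out, it was -0.07, and 12 of the 13 had a lower value in T29-1 Cre (51.2% of all genes tested). edgeR then called 0 of the 32 members at an adjusted p under 0.05 (0.0062% of all genes). At an unadjusted p under 0.05, 4 were lower, Dnajb11, Hsp90b1, Hspa5 and Pdia4, and 0 higher, against 1.41% and 1.46% of all genes. The log2 fold change of Hspa5 was then -0.16 (SE 0.0588), that of Dnajb11 -0.15 (SE 0.0493), that of Hsp90b1 -0.10 (SE 0.037) and that of Pdia4 -0.14 (SE 0.0627). In 4 ER genes, Dnajb11, Hspa5, Hsp90b1 and Dnajc3, the 3 remaining WT libraries all lay above the 4 T29-1 Cre libraries, against 1.94% of all genes. Other libraries changed the count too. Without WT replicate 1, the 3 members lower at an unadjusted p under 0.05 were Dnajb11, Hspa5 and Dnajb1 (1.2% of all genes in that fit). Without T29-1 Cre replicate 3, where Trib3 passed the filter, the 3 were Dnajb11, Hspa5 and Trib3 (1.14% of all genes). Without WT replicate 3 there were 11, with Trib3 again tested, against 1.91% of all genes, and 7 of the 11 were ER chaperones.

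Seen library by library, the ER class was high in 2 WT libraries rather than in all 4. The median deviation of its 13 genes from the mean of the 8 libraries, in log2 CPM, was 0.11, 0.00, -0.03 and 0.15 in WT replicates 1 to 4 and -0.04, -0.03, -0.11 and -0.03 in T29-1 Cre replicates 1 to 4. 11 of the 13 genes were above their mean in WT replicate 1 and in WT replicate 4, and 6 and 5 were above it in WT replicates 2 and 3. Of all genes tested, 52.9%, 52.5%, 50.9% and 49.9% were above it in WT replicates 1 to 4. In T29-1 Cre replicate 3, 0 of the 13 were above it, and in the other T29-1 Cre libraries 3, 5 and 5, against 49.8% to 51.7% of all genes.

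The regulators of the response had a median nearer 0 in the main fit, and whether they differ from the ER class was not tested. With no filter on low counts, where Trib3 is counted, the medians were -0.10 for the regulators and -0.13 for the ER class. Without T29-1 Cre replicate 3, again with Trib3, they were -0.11 and -0.09. Of the 6 regulators in the main fit, 5 had a lower value in T29-1 Cre with a median log2 fold change of -0.07. Without WT replicate 4 only 3 did, and the median was 0.00. 0 of the 6 were at an unadjusted p under 0.05, with or without that library. Xbp1, the transcription factor downstream of IRE1, was at 58.9, 57.9, 58.4 and 72.4 CPM in WT and 57.4, 55.2, 58.0 and 59.8 in T29-1 Cre. Apart from WT replicate 4, the 7 libraries lay within 55.2 to 59.8 CPM, and the log2 fold change went from -0.10 (SE 0.0694) to -0.02 (SE 0.041) without it. Counts per gene do not separate the spliced form of Xbp1, which IRE1 makes, from the unspliced one.

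Atf4, the transcription factor that PERK signalling translates, was at 88.5, 87.7, 86.3 and 96.9 CPM in WT and 95.2, 87.5, 87.3 and 85.2 in T29-1 Cre, a log2 fold change of -0.02 (SE 0.054), and 0.02 without WT replicate 4. WT replicate 4 and T29-1 Cre replicate 1 were high, and the other 6 libraries lay within 85.2 to 88.5 CPM. Ddit3, which encodes the pro-apoptotic factor CHOP, was at 13.6, 13.4, 12.3 and 16.7 CPM in WT and 12.2, 12.6, 13.6 and 11.1 in T29-1 Cre. Its log2 fold change of -0.18 (SE 0.098) went to -0.08 (SE 0.0814) without WT replicate 4. A part of its exons overlaps Mars on the opposite strand (4.0%) and a second annotated Ddit3 model (6.1%).

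Chac1, a glutathione-degrading enzyme induced through ATF4, was the only tested UPR regulator with a higher mean in T29-1 Cre. It was at 7.15, 6.41, 5.25 and 5.85 CPM in WT and 7.63, 6.45, 5.96 and 6.90 in T29-1 Cre, a log2 fold change of 0.13 (SE 0.118) with overlapping groups, and 0.11 without WT replicate 4. Herpud1, which recruits the ER degradation machinery, was at -0.05 (SE 0.0771), and at 0.05 without WT replicate 4. Atf3, a stress-induced repressor, rested on 13 to 31 reads per library and had -0.23 (SE 0.268), and -0.41 without WT replicate 4.

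Trib3, a pseudokinase induced through ATF4 and CHOP, held 20, 12, 8 and 13 reads in WT and 5, 4, 10 and 3 in T29-1 Cre. The groups overlapped through WT replicate 3 and T29-1 Cre replicate 3, and the 53 reads of WT against 22 of T29-1 Cre are the whole of the evidence. With no filter on low counts, its log2 fold change by edgeR was -1.24 (SE 0.443), and the adjusted p was 0.892. Trib3 stands at -1.24 in the authors' deposited table too, with an unadjusted p of 0.00489. The authors' deposited table lists Hspa5 at -0.20 with an unadjusted p of 0.00678, and the unadjusted p values it lists for Hsp90b1 and Calr are 0.0633 and 0.0534.

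The cytosolic chaperones lay closer to no difference. Of 10 tested, 9 had a lower value in T29-1 Cre, with and without WT replicate 4, and the median log2 fold change was -0.05 and -0.02. 0 of the 10 were at an unadjusted p under 0.05 in either case. Whether the cytosolic and ER classes differ from each other was not tested. In the log2 deviations of the libraries, the ER median exceeded the cytosolic one by 0.12 in WT replicate 1 and lay below it by 0.13 in T29-1 Cre replicate 4 (a difference of -0.13). In the other 6 libraries the difference ran from -0.05 to 0.03, with both genotypes mixed.

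Hspa8, the constitutive HSC70 that uncoats clathrin vesicles at synapses, was at 1466, 1393, 1396 and 1513 CPM in WT and 1343, 1408, 1331 and 1513 in T29-1 Cre. WT replicate 4 and T29-1 Cre replicate 4 were equal to the nearest CPM, and the log2 fold change was -0.04 (SE 0.0521), with a 95% interval from -10.2% to 4.84%. Hsp90aa1, the stress-inducible cytosolic HSP90, was at 943, 975, 965 and 1031 CPM in WT and 917, 940, 910 and 1034 in T29-1 Cre, a log2 fold change of -0.04 (SE 0.0517). Its constitutive partner Hsp90ab1 also had -0.04 (SE 0.0473). Without WT replicate 4, Hspa8 was at -0.02, Hsp90aa1 at -0.02 and Hsp90ab1 at -0.01. For these 3 genes the intervals leave out a decrease as large as that estimated for Hspa5. They overlap the interval of Hspa5 itself (-20.9% to -3.81%), and the genes were not tested against each other. In T29-1 Cre replicate 4, Hspa8, Hsp90aa1, Hspa4 and Hsph1 reached their highest level of all 8 libraries, and in T29-1 Cre replicate 3, 0 of the 10 cytosolic genes were above their mean (51.6% of all genes).

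Dnajb1, the HSP40 partner of HSP70 and a target of heat shock factor 1, had the smallest unadjusted p of the class (0.0618, edgeR). It was at 46.4, 48.9, 46.5 and 55.9 CPM in WT and 45.1, 45.7, 41.8 and 47.4 in T29-1 Cre. The log2 fold change of -0.13 (SE 0.0662) went to -0.07 (SE 0.0496) without WT replicate 4. Hspb1, the small heat shock protein HSP27, had the lowest value of any tested member, -0.33 (SE 0.202), but on 56 to 106 reads per library and with T29-1 Cre replicates 1 and 2 among the WT libraries. Its levels were 2.99, 4.28, 2.77 and 3.72 CPM in WT and 3.78, 2.88, 2.13 and 2.10 in T29-1 Cre, and its value without WT replicate 4 was -0.29.

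Hspa1a and Hspa1b, the heat-inducible HSP70 genes, lie near each other on the minus strand of chromosome 17 (34969190 to 34972156 and 34956436 to 34959238). Their coding sequences are 99.6% identical, and 38.1% of the 150-base windows of the Hspa1a transcript occur unchanged in Hspa1b (40.5% the other way), so the split of reads between them is uncertain. Hspa1a was at 11.2, 12, 11.6 and 15.0 CPM in WT and 9.67, 12, 10.6 and 12.6 in T29-1 Cre, and Hspa1b at 11.2, 12.5, 14.5 and 17.7 against 12.7, 13.6, 10.8 and 15.2. A gene on the opposite strand also covers 19.0% of the exon bases of Hspa1a. Their summed level was 26.4 ± 4.48 CPM in the 4 WT libraries and 24.3 ± 2.95 CPM in the 4 of T29-1 Cre (mean ± SD), a difference smaller than the SD of WT. Their log2 fold changes of -0.15 (SE 0.109) and -0.10 (SE 0.133) became -0.05 and 0.03 without WT replicate 4.

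The co-chaperone Bag3 and the HSP110 genes had values near 0. Bag3, which links HSP70 to selective autophagy, had a log2 fold change of -0.06 (SE 0.101). The HSP110 nucleotide exchange factors Hsph1 and Hspa4 had -0.01 (SE 0.0583) and 0.02 (SE 0.0561). Without WT replicate 4, Bag3 was at -0.01, Hsph1 at -0.03 and Hspa4 at -0.02. The window of Hsph1 was the only cytosolic one with an exact match to the heat shock element. Looser forms of the motif and bases outside the windows were not searched.

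**Figure D3:**
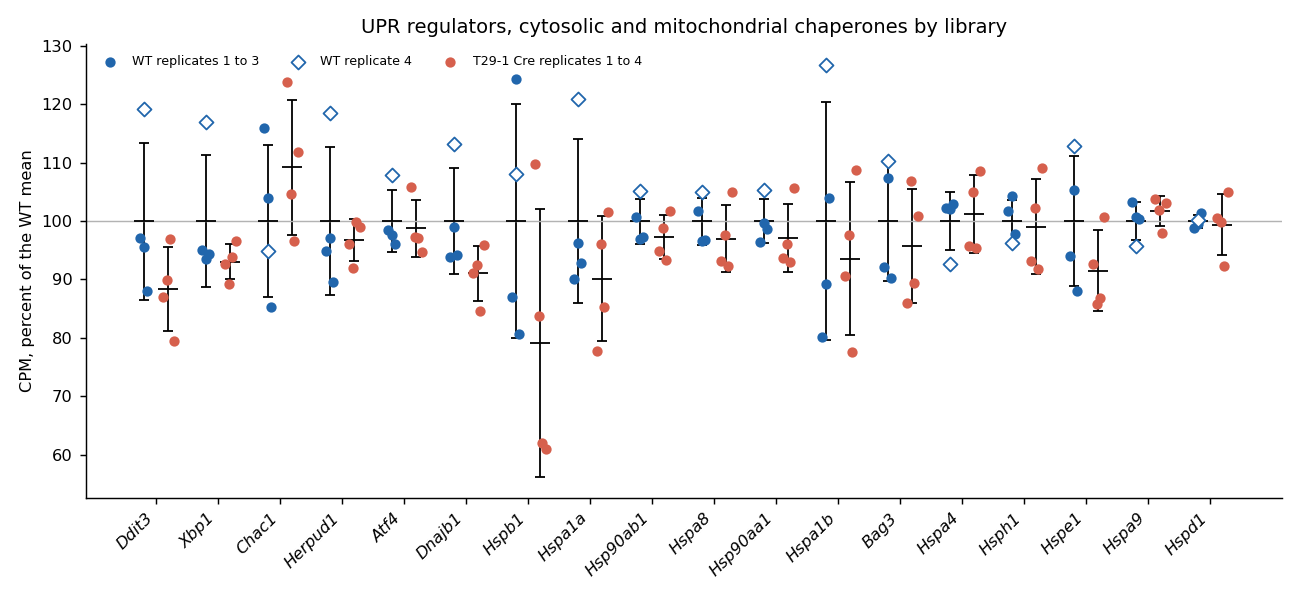
CPM of 5 UPR regulators, 10 cytosolic chaperones and 3 mitochondrial chaperones in each library, as a percent of the gene's WT mean, with the mean and SD of each genotype as bars (n = 4) and WT replicate 4 as an open diamond. Atf3 and Trib3 are left out for their low counts. The WT means of Ddit3, Xbp1, Herpud1, Hspa1a and Hspa1b lie below WT replicate 4 and above the other WT libraries or all but 1 of them.

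Hspd1 (HSP60) and Hspa9 (mortalin, the matrix HSP70) had log2 fold changes of -0.01 (SE 0.0481) and 0.02 (SE 0.0446), and Hspe1 (HSP10), the lid of the HSP60 chamber, had -0.13 (SE 0.0785). Hspd1 was at 159, 160, 163 and 162 CPM in WT, the tightest WT group of all 33 genes with a coefficient of variation of 1.11%, and at 162, 161, 149 and 169 CPM in T29-1 Cre. Hspa9 was at 212, 206, 206 and 196 CPM in WT and 213, 209, 201 and 211 CPM in T29-1 Cre. Hspe1 was at 41.0, 45.9, 38.4 and 49.3 CPM in WT and 40.5, 37.5, 37.9 and 44.0 in T29-1 Cre, and its value without WT replicate 4 was -0.06, beside -0.01 for Hspd1 and 0.00 for Hspa9. The heat shock element pair shown above lies in the window of Hspe1 and in that of only one start of Hspd1. The WT libraries varied by 1.11% for Hspd1 and 11.2% for Hspe1, and the T29-1 Cre libraries by 5.28% and 7.51%. Their exons overlap on opposite strands over 112 bases, 4.2% of Hspd1 and 7.6% of Hspe1.

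**Figure D4:**
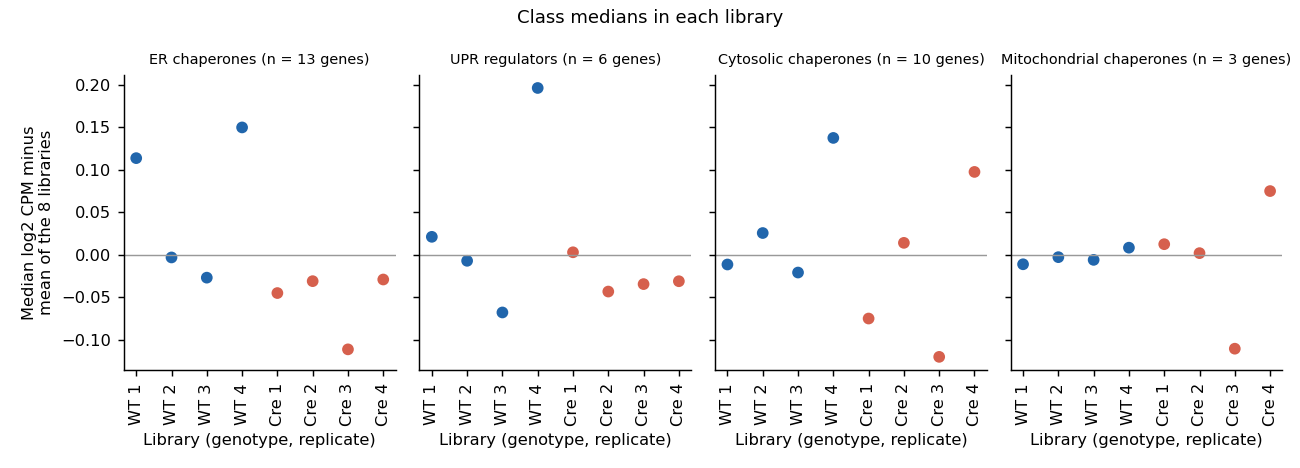
Median log2 CPM deviation of each class from the mean of the 8 libraries, for WT (blue) and T29-1 Cre (red) replicates 1 to 4. The ER class is high in WT replicates 1 and 4, the UPR regulators in WT replicate 4, and the cytosolic class in WT replicate 4 and T29-1 Cre replicate 4.

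WT replicate 4 was the highest of the 8 libraries for 17 of the 32 tested members, against 25.5% of all genes tested, and the lowest for 4, against 27.2%. It was the highest for 7 of 13 ER chaperones, 4 of 6 UPR regulators, 5 of 10 cytosolic and 1 of 3 mitochondrial chaperones. Its log2 deviation from the other WT libraries was correlated with exon length and GC content. Across the 32 members the Spearman correlation was -0.45 with exon length and 0.47 with GC content, and across 15236 genes with known values it was -0.41 and 0.35. Correlations of that size across the members were seen for other libraries too: 0.48 with length and -0.40 with GC content for WT replicate 3, and -0.50 with length for T29-1 Cre replicate 1. Across all genes these were 0.31, -0.29 and -0.21. These points are genes of the same libraries and not independent. The members highest in this library relative to the other WT libraries were Creld2 (log2 deviation 0.56), Hspa1b (0.48), Hspa1a (0.38) and Ddit3 (0.35). Those lowest were Atf3 (-0.98, on few reads), Hspa4 (-0.15), Chac1 (-0.10) and Canx (-0.10). The part of length and GC content in the genotype values was measured with offsets.

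With each library's dependence on exon length and GC content removed through offsets, the median of the ER class was -0.11, that of the cytosolic class -0.05, that of the UPR regulators -0.04 and that of the mitochondrial class 0.01. 5 members were then at an unadjusted p under 0.05, all lower in T29-1 Cre and all ER chaperones, against 1.2% of all genes in that fit. With the offsets and without WT replicate 4, the ER median was -0.07, and 3 members, Hsp90b1, Dnajb11 and Hspa5, were at an unadjusted p under 0.05, against 1.39% of all genes lower.

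**Figure D5:**
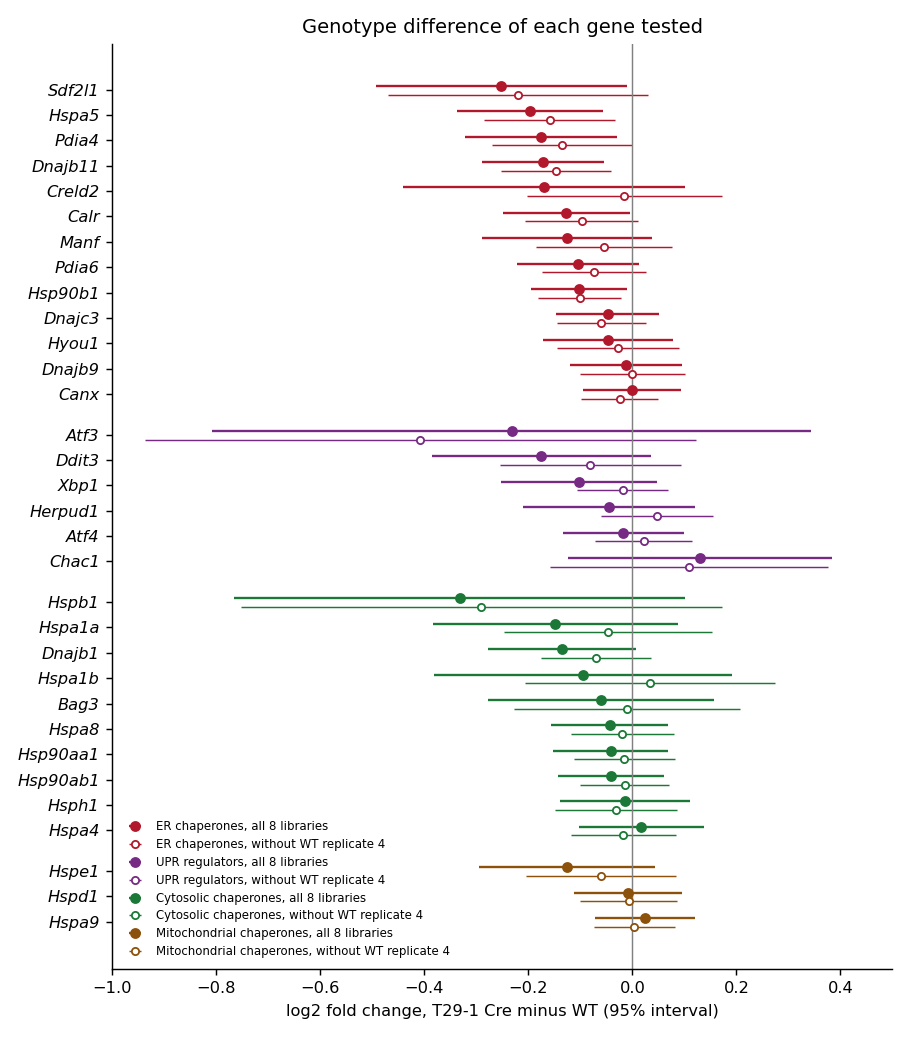
Log2 fold change (T29-1 Cre minus WT) of the 32 tested members with 95% intervals from edgeR, with all 8 libraries (filled) and without WT replicate 4 (open). The filled intervals of 6 ER chaperones, Sdf2l1, Hspa5, Pdia4, Dnajb11, Calr and Hsp90b1, lie below 0, and those of all other members cross it.

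The rest of the pathway was read from 8 lists of 173 further genes, of which 167 were tested. edgeR called 0 of them, and at an unadjusted p under 0.05 there were 2 lower, Sec61g and Hsf1, and 0 higher in T29-1 Cre. The 2 are 1.20% of the genes of these lists, near the 1.16% of all genes lower at that threshold. Of 16 sensors and kinases, 11 had a higher and 5 a lower value, with a median log2 fold change of 0.01, and without WT replicate 4 the lower values were 9 and the median -0.01. Ern1 (IRE1) was at 0.06 (SE 0.0910), Eif2ak3 (PERK) at 0.03 (SE 0.0542) and Atf6 at 0.02 (SE 0.0687). Without WT replicate 4, Ern1 was at 0.00, Eif2ak3 at 0.01 and Atf6 at -0.06. The smallest p values of that list were those of Eif2ak4, the amino acid sensor GCN2, at 0.08, and Atf6b at -0.07 (0.04 and -0.02 without WT replicate 4).

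Targets of the integrated stress response gave 8 lower and 8 higher values (median -0.01), and 5 lower of 16 without WT replicate 4 (median 0.03). The amino acid transporter Slc7a5 was at 0.08 with and without that library, and Vldlr at 0.11 with it and 0.03 without. Genes of ER-associated degradation gave 8 lower and 10 higher (median 0.01; Faf2 0.08, Rnf139 -0.07), and 10 lower of 18 without WT replicate 4 (median -0.01; Faf2 0.06, Rnf139 -0.06). The ER folding enzymes outside the 13 members gave 17 lower and 8 higher with a median of -0.02, but 13 lower of 25 with a median of 0.00 without WT replicate 4. Creld1, the relative of Creld2, was at -0.11 and the co-chaperone Dnajc25 at 0.31, and at -0.06 and 0.22 without it. Of 25 translocon and glycosylation genes, 17 had a lower value with and without WT replicate 4 (medians -0.03 and -0.01). Among them were Sec61g, a subunit of the Sec61 channel, at -0.19 (SE 0.0802) and -0.13 without it, and Ostc at -0.09 and -0.04.

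The 35 heat shock factors and co-chaperones had 29 lower values with a median of -0.05, and 26 without WT replicate 4 (median -0.02). Hsf1, the heat shock factor itself, averaged 36.0 ± 2.16 CPM in the 4 WT libraries and 32.3 ± 1.15 CPM in the 4 of T29-1 Cre (mean ± SD). Its log2 fold change was -0.16 (SE 0.0579) with all libraries, at an edgeR adjusted p of 0.998, and -0.15 without WT replicate 4. The small heat shock gene Cryab was at -0.14 (SE 0.0710), and -0.10 without WT replicate 4. Of 14 genes of the cytosolic chaperonin and prefoldin, 13 had a lower value (median -0.05; Cct6a -0.07, Vbp1 -0.07), but without WT replicate 4 only 6 did (median 0.00; Cct6a -0.04, Vbp1 -0.08). The 18 mitochondrial proteases and import chaperones went from 14 lower (median -0.04; Lonp1 -0.06, Pam16 -0.14) to 10 lower (median 0.00; Lonp1 -0.03, Pam16 0.00) without it.

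Markers of other cells that the dissection could hold differed between libraries. The summed level of 10 oligodendrocyte markers was 3736 to 4527 CPM in WT, highest in WT replicate 1, and 3660 to 4017 CPM in T29-1 Cre, and all 10 had a lower mean in T29-1 Cre (median -0.09). 8 astrocyte markers summed to 3590 CPM in WT replicate 4, the lowest of the 8 libraries, and the highest sums were 4743 CPM for WT and 4717 CPM for T29-1 Cre. Slc1a2 made up most of each astrocyte sum and was lowest in WT replicate 4. Aqp4, Slc1a3, Sox9 and Gja1 were also lowest in that library. Aldh1l1 was highest in it, and Fgfr3 and Gfap were neither highest nor lowest, so the astrocyte markers did not all move together. 10 choroid plexus markers, of which 8 were detected in every library, summed to between 25.8 and 31.1 CPM in WT, and to between 29.1 and 57.4 CPM in T29-1 Cre. Most of the WT sums was Kl, at 19.8 to 21.5 CPM in WT. Of the 5 tested, all had a higher value in T29-1 Cre and 2 were at an unadjusted p under 0.05, Ttr at 2.39 and Clic6 at 0.89. Ttr was at 1.08, 1.45, 4.37 and 1.42 CPM in WT and 3.89, 11.5, 26.9 and 2.81 in T29-1 Cre. The groups overlapped for Ttr and for Clic6, and Ttr was highest in T29-1 Cre replicates 2 and 3. The 6 blood markers summed to 34.6 to 62.2 and 30.1 to 47.6 CPM, the 8 meningeal fibroblast markers to 107 to 122 and 101 to 166 CPM, the 8 endothelial markers to 137 to 173 and 140 to 196 CPM, the 8 microglial markers to 336 to 347 and 324 to 346 CPM, and the 8 ependymal markers to 30.6 to 46.5 and 33.7 to 40.1 CPM, in WT and T29-1 Cre in that order. At an unadjusted p under 0.05 there were also the blood gene Hba-a1 at -0.32 and the astrocyte gene Fgfr3 at 0.17. No marker of these lists was at 0 in all libraries. 10 immediate early genes, a sign of recent activity, summed to between 564 and 781 CPM in WT, and to between 581 and 743 CPM in T29-1 Cre. 9 of the 10 had a higher value in T29-1 Cre (median 0.02), with Dusp1 at 0.21 and an unadjusted p under 0.05. The part of these cells in the chaperone values was not tested.

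Precision was enough to bound most members. The 95% interval of the fold change lay within 1.5-fold in either direction for 30 of the 32 tested members. The 2 others were Atf3 and Hspb1, which had the fewest reads of those tested.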

How the data were processed

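Poly(A) RNA from hippocampus was sequenced as paired-end reads after a directional library preparation, per the labels' protocols. The submitters' processing notes name STAR 2.6.1d, featureCounts, edgeR 3.11 and GRCm38. The annotation, strand setting and treatment of multi-mapping reads were not given in the sources used here. Raw read counts per gene name were deposited by the authors for 8 libraries. Their own comparison was deposited too, and its log2 fold change and p-value were read as the authors deposited them.

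The counts were filtered with filterByExpr (minimum count 10, minimum total 15), scaled by TMM and tested with edgeR 4.0.16 (R 4.3.3, quasi-likelihood F test, no covariate). P-values were adjusted by Benjamini-Hochberg over 15996 genes and called under 0.05. Standard errors are |log2 fold change| over the root of F. Log2 CPM uses a prior count of 2. Exact two-sided permutation tests used all 70 assignments of libraries. The labels do not name separate animals, so a p-value covers only the spread between these libraries, possibly technical. Exon lengths, GC content and gene positions came from GENCODE M21 (GRCm38), with values for 95.2% of tested genes. The fit was tested on simulated data.

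Members, classes, lists and tests were chosen with earlier results of these data known. The rule gives all members by value. Library by library it names Hspa5, Hsp90b1, Xbp1, Atf4, Ddit3, Hspa8, Hsp90aa1, Hspa1a, Hspa1b, Hspd1 and the 3 members of each class with the smallest p. Of each further list it names the 2 genes with the smallest p, and always Ern1, Eif2ak3, Atf6 and Hsf1. Library values of Sdf2l1 and Calr, and other marker genes, were added after their values were seen. Alternatives were DESeq2 1.42.0, limma-voom (limma 3.58.1), 3 scalings, 2 filters, a replicate block, length and GC offsets (loess span 0.4), a threshold of 0.1 and each library left out. The offsets without WT replicate 4 and the count at an unadjusted p were added after seeing the data.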

Additional observations from a re-analysis of the deposited data

Results flagged for a closer look

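For the 32 tested members and the 4 class medians, the 4 libraries of each genotype were compared to find a highest or lowest library that lay well away from its neighbours. This happened in 3 of 72 groups. By chance about 1 in 20 groups would be expected (3.6 of 72) if the groups were independent, which they are not. Xbp1 in WT replicate 4 was at 6.18 log2 CPM, against 5.86 to 5.88 in the other WT libraries. Hspa4 in WT replicate 4 was at 8.03 log2 CPM, against 8.17 to 8.18. Canx in T29-1 Cre replicate 3 was at 8.47 log2 CPM, against 8.51 to 8.52.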

How the results depend on the processing

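0 of the 32 members were called under each of the 19 alternatives, a threshold of 0.1 on the adjusted p among them. Over all genes 1 was called in the main analysis (St6gal2), 2 were called with no filter on low counts and 2 with the replicate block, and the cause was not tested. Same-numbered libraries correlated at -0.07, 0.05, 0.02 and -0.03 in their deviations from the group means. Differently numbered libraries were not compared, so these values do not decide whether the replicate numbers pair the samples. The replicate block left the members with a lower value at 29 and those at an unadjusted p under 0.05 at 6. These were not the same 6 genes, since the cytosolic Dnajb1 was now among them (edgeR unadjusted p = 0.0329). With each library left out, the count of members at an unadjusted p under 0.05 and lower in T29-1 Cre ran from 3 to 11. With length and GC offsets and WT replicate 4 left out it was 3. Hspa5 and Dnajb11 were at an unadjusted p under 0.05 in all 18 alternative fits in which each was followed. Their log2 fold changes ran from -0.24 to -0.15 and from -0.21 to -0.14. The 72 class medians under alternatives moved by less than the spread between libraries (pooled SD of the library medians). For the UPR, cytosolic and mitochondrial classes that spread (0.0813, 0.0854 and 0.0548) exceeded the size of the main median. A fall to 0 in those classes would thus not have counted as a move. The medians ran from -0.16 to -0.07 for ER chaperones, -0.13 to 0.00 for UPR regulators, -0.09 to -0.02 for cytosolic and -0.04 to 0.02 for mitochondrial chaperones.

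24 tested members kept their direction in every alternative, and 8 with main values of at most 0.0953 in size changed it. With length and GC offsets these were Atf4 (0.016), Dnajb9 (0.0033) and Hspd1 (0.012). With the offsets and WT replicate 4 left out they were Atf4 (0.016), Dnajb9 (0.014), Herpud1 (0.047), Hspa1b (0.023), Hspa4 (-0.013) and Hspd1 (0.00023). With 1 library left out, Atf4 ran from -0.052 to 0.021, Canx from -0.025 to 0.011, Dnajb9 from -0.040 to 0.0032, Herpud1 from -0.10 to 0.047, Hspa1b from -0.19 to 0.034, Hspa4 from -0.019 to 0.045, Hspd1 from -0.036 to 0.025 and Hsph1 from -0.063 to 0.021. Depth limits Trib3, Atf3 and Hspb1, whose libraries held 3 to 106 reads.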
